A study of Mus musculus with 21 samples.

Results

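The genes described here are 6 mouse Toll-like receptors (Tlr1, Tlr2, Tlr4, Tlr6, Tlr7 and Tlr9) and 4 proteins that work with them or resemble them (Myd88, Cd180, Ly86 and Unc93b1). They were measured on Affymetrix Mouse Genome 430 2.0 arrays, and their members are the 15 probe sets that the platform annotation assigns to these 10 genes and to no other gene, of 45037 probe sets that are not controls. Tlr4 had 4 probe sets, Tlr7 had 3, and each of the other genes had 1. The symbols were a list, and no rule on measured values picked them. Earlier results of these data were known when the list was made.

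The series holds 21 arrays in 7 groups of 3. The 4 marrow groups were B220-positive cells taken from mouse bone marrow on a sorter, where B220 is a surface protein of B lineage cells that some plasmacytoid dendritic cells also carry. They came from wild-type mice, from Cebpb LAP transgenic mice, from Blnk KO mice and from Blnk KO/LAP tg mice. LAP is the form of C/EBPβ that activates transcription, and BLNK is an adaptor that links the receptor of pre-B cells to signalling enzymes. The sources used here do not give the promoter that drives the transgene or the ages of the mice. The other 3 groups were 1 mouse pre-B acute lymphoblastic leukaemia line, LB31, which was established from a Blnk KO mouse, grown with 5 ng/ml of interleukin 7 and transduced with a pMY retroviral vector. It held no insert, the Blnk cDNA, or a mutant Blnk without function that the labels name YF, so all LB31 arrays share the knockout background of 1 line. Every array was labelled from 100 ng of total RNA. The sources used here do not say whether the 3 arrays of a group came from separate mice or cultures, so the p-values measure only the spread between these arrays, which may be technical.

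Toll-like receptors are innate sensors that recognise conserved molecules of microbes. TLR2 works at the cell surface as a partner of TLR1 or TLR6 and senses bacterial lipoproteins, and TLR4 senses lipopolysaccharide, whereas TLR7 and TLR9 sense RNA and DNA inside endosomes. UNC93B1 is the chaperone that carries the endosomal receptors out of the endoplasmic reticulum, and MYD88 is the adaptor through which most of the family signals. CD180 is a receptor relative on B cells and myeloid cells, and the product of Ly86, also called MD-1, is the secreted protein that binds it. B cells respond directly to several of these ligands, and the receptors are also characteristic of monocytes, macrophages and dendritic cells.

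All 10 genes matched the RefSeq table of the mouse assembly GRCm38.p6. Tlr1 (chr5:64924680-64933600) and Tlr6 (chr5:64953092-64970942) are neighbours. Tlr2 lies at chr3:83836272-83841824, Tlr4 at chr4:66827551-66846581, Tlr7 at chrX:167303380-167330574 and Tlr9 at chr9:106222598-106226876. Myd88 lies at chr9:119335934-119340018, Cd180 at chr13:102693547-102706631, Ly86 at chr13:37345345-37419036 and Unc93b1 at chr19:3935158-3949340. RefSeq promoter sequences were at hand for 7 of the 10 genes (Tlr1, Tlr2, Tlr6, Tlr9, Myd88, Cd180 and Ly86). Tlr1, Tlr6 and Cd180 had 2 annotated starts each, and the window of the upstream start is printed. The 4 windows below run 5′ to 3′ from 250 bases before to 30 bases after the annotated start in GRCm38.p6. Tlr1 and Ly86 are shown because they had the largest falls with the knockout label alone, Tlr6 as the neighbour of Tlr1 that passed the test in no comparison, and Myd88 as a member that was higher in marrow with both changes. Capitals mark a match to a searched motif. The window of Tlr1 is chr5:64933529-64933808 on the minus strand, that of Tlr6 is chr5:64960019-64960298 on the minus strand, that of Ly86 is chr13:37345095-37345374 on the plus strand, and that of Myd88 is chr9:119339989-119340268 on the minus strand.
Tlr1: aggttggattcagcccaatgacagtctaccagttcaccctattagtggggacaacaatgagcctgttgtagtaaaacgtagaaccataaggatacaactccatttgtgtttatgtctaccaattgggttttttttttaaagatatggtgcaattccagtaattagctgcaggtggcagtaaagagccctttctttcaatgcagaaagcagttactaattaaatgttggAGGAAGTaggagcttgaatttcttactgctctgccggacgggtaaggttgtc
Tlr6: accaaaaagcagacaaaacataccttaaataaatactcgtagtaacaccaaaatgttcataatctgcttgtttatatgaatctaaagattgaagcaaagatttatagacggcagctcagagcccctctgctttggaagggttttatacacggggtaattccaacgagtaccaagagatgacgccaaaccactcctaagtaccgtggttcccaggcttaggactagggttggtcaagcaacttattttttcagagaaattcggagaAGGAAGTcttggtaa
Ly86: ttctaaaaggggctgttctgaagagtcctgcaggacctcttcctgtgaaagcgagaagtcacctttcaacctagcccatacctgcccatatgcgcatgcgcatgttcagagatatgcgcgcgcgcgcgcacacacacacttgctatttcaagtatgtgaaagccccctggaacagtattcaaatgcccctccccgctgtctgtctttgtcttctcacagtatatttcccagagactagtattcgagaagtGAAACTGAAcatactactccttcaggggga
Myd88: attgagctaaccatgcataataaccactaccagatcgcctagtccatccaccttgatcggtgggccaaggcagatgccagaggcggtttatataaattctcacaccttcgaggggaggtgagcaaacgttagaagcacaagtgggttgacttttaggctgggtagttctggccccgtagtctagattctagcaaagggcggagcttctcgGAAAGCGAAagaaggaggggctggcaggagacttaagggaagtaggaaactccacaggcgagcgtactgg

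The search used 5 motifs chosen after the sequences had been read, on both strands of windows of 300 bases that reach 50 bases past the start. AGGAAGT, the core bound by the factors PU.1 and Spi-B of B cells and myeloid cells, was in 9.35% of 32851 such RefSeq windows, and the octamer ATGCAAAT was in 1.74%. TTGCNNAA, a form of the C/EBP motif, was in 10.8%, the NF-kB consensus in 8.46%, and GAAANNGAA, from the core of interferon-stimulated elements, in 8.56%. The capitals in the Tlr1 window are AGGAAGT with its first base at -22 from the start, and those in the Tlr6 window are the same letters at 16. Those in the Ly86 and Myd88 windows are the interferon-stimulated form, at 1 and at -40. The motif found in the Tlr1 window was thus also present in both windows of its neighbour Tlr6, whereas the second Tlr1 window held none of the 5 motifs. Both Tlr6 windows lie inside the gene as given above, whose 5′ end on the minus strand is at 64970942. The second Tlr6 window also held the 1 C/EBP match among the members and 2 interferon-stimulated forms, and the Tlr9 window held the octamer and AGGAAGT. The Ly86 and Myd88 windows shared the interferon-stimulated form, and the part of any motif in the changes was not tested. The Cd180 windows held none of the 5 motifs, and that of Tlr2 held the NF-kB consensus 3 times, with 2 of the matches overlapping. A match describes letters and is no site of binding.

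The arrays and labels were checked first. Median deposited signals ran from 15.3 to 31.4 and were higher in the knockout-labelled marrow groups (28.8 ± 1.78 and, with the transgene, 29.3 ± 1.87; SD, n = 3) than in wild-type marrow (21.5 ± 2.07), and quantile normalization removes that difference. Replicates correlated at 0.963 to 0.98 over all probe sets, and the ratio of the 3′ to the 5′ Gapdh control, a sign of RNA quality, ran from 0.69 to 1.04 and was highest in LAP transgenic marrow (0.97 ± 0.08). Of the 2 Cebpb probe sets, 1427844_a_at followed the labels in marrow, at 5.43 ± 0.10 on the log2 scale in wild-type and 5.02 ± 0.35 in knockout-labelled marrow and at 10.05 ± 0.15 and 9.90 ± 0.08 in the groups with LAP. The other, 1418901_at, did not separate them, at 7.28 ± 0.23, 7.04 ± 0.64, 8.31 ± 0.99 and 7.20 ± 0.39 in the same order. The Blnk probe set did not, at 12.44 ± 0.09 in wild-type marrow and 12.37 ± 0.24 in the marrow labelled Blnk KO. The sources used here do not say which part of the gene was deleted and the probes may lie outside it, so that probe set checks nothing, and these groups are called knockout-labelled throughout. The B lineage genes stood high on every array, with a list mean of 10.60 to 11.05 in marrow and 10.02 to 10.27 in LB31 over 6 measured genes of 7, Cd79a among them. Marrow also held strong signal of genes that define other cells: S100a8 of neutrophils averaged 13.06 to 13.68 and Csf1r of monocytes and macrophages 9.85 to 10.66 in the 4 marrow groups, whereas in LB31 they averaged 2.64 to 3.28 and 4.85 to 5.33. Cd3e of T cells and Xcr1 of conventional dendritic cells stayed at or below 4.06 as group means throughout, but they do not stand for their lists. The mean of the T and NK cell list, 4 measured genes of 5, was 4.54 to 6.08 on marrow and 2.82 to 3.51 on LB31 arrays. That of the conventional dendritic cell list, 3 measured of 4, was 3.79 to 4.70 and 3.53 to 4.58. On each wild-type array 3 and 2 genes of these lists were above the 40th percentile of the array. Because the RNA is of bulk cells, fewer cells of a type and less RNA per cell cannot be told apart for any gene below.

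Levels are given as log2 of the normalized signal plus 4. A probe set was tested where its deposited value lay above the 40th percentile of its own array, about 4.06 on the log2 scale, on at least 3 arrays of a fit, and it was called at a Benjamini-Hochberg adjusted p under 0.05 in limma over all probe sets tested. Of the 15 probe sets, 13 could be tested in marrow, 10 in LB31 and 14 over all arrays. Those not tested in marrow were Tlr4 1430695_at and Tlr7 1449640_at. In LB31 the Tlr1 probe set, all 3 of Tlr7 and Tlr4 1430695_at were not tested.

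Across the 4 marrow groups the family did not move as a block. Tlr1, Tlr7 and Ly86 fell with the knockout label, Tlr4 and Myd88 were higher in marrow with both changes, Tlr2 was higher with the transgene alone, and Tlr6 and Tlr9 passed the test in no comparison. For knockout-labelled against wild-type marrow, 3 of the 13 tested probe sets were called, all lower, where 12.6% of all 30128 tested probe sets were called in either direction and 6.41% lower. For LAP transgenic against wild-type marrow 1 was called, higher, with 2.57% of all called and 1.23% called higher. With both changes against wild-type, 3 were called higher and 6 lower, with 25.2% of all called and 12.6% in each direction. Against knockout-labelled marrow the marrow with both changes had 2 lower calls, with 5.08% of all called and 3.14% called lower. Against LAP transgenic marrow it had 2 higher and 6 lower, with 21.1% of all called, 11.3% higher and 9.80% lower. The median change of the tested members was -0.24, 0.18, -0.33, -0.10 and -0.27 in these 5 comparisons in that order, and the median over all probe sets lay between -0.02 and 0.02. The comparisons share groups, so their counts are not independent of each other. Without normalization, with the values as deposited, the median of all probe sets moved to 0.31 for the knockout label, 0.33 for both changes against wild-type and 0.40 against LAP transgenic marrow, and the split of calls moved with it. The knockout label then had 4 higher calls (Myd88 and 3 probe sets of Tlr4) and 2 lower (Tlr1 and Ly86), both changes against wild-type had 5 higher and 4 lower, and both changes against LAP transgenic marrow had 4 higher and 5 lower. Leaving out LAP knockout-labelled array 2 brought the calls for both changes against wild-type from 9 to 5. Leaving out 1 array brought those against the knockout label from 2 to 1 (knockout-labelled array 2, or LAP knockout-labelled array 1 or 2).

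**Figure D1:**
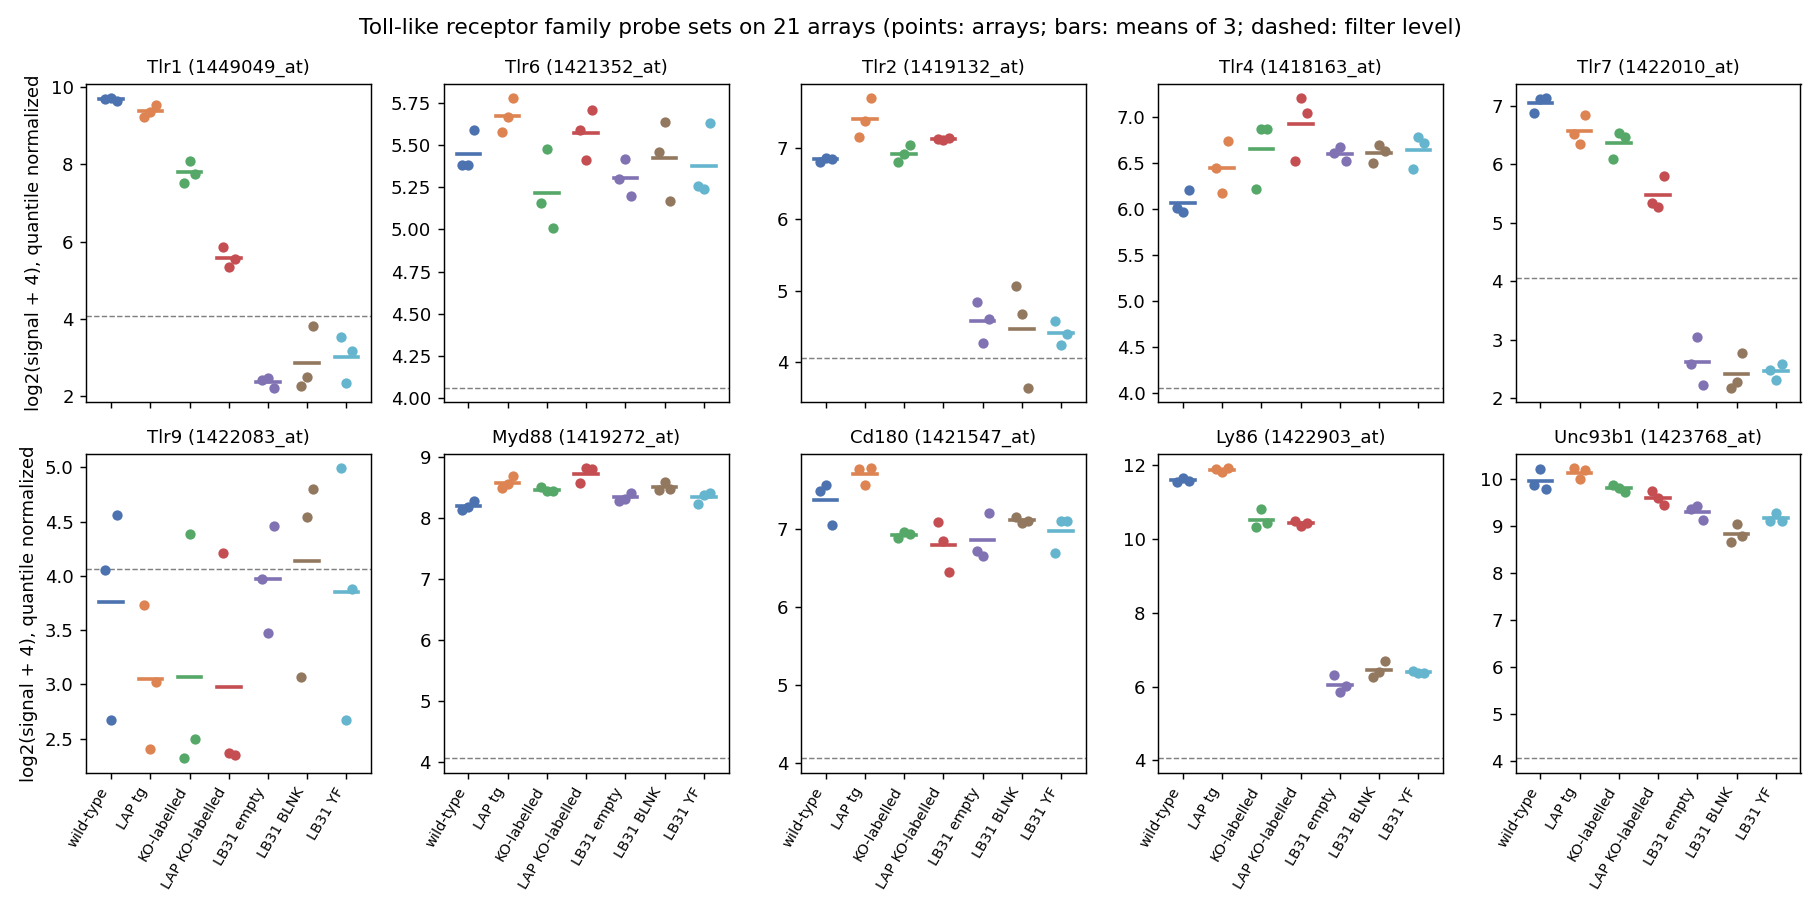
Level of the brightest probe set of each of the 10 genes on every array, as quantile normalized log2(signal + 4). Each gene has its own vertical scale. Points are arrays, bars are means of 3, and the dashed line is the filter level of 4.06 where it falls within the scale. Tlr1 steps down from 9.69 in wild-type to 5.58 in LAP knockout-labelled marrow and lies under the dashed line on all LB31 arrays, as does Tlr7, whereas Tlr6 stays between 5.01 and 5.78.

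Tlr1, the surface receptor that pairs with TLR2 for triacylated lipoproteins, showed the widest range in marrow. It stood at 9.70, 9.72 and 9.65 on the 3 wild-type arrays and at 9.22, 9.37 and 9.54 on the LAP transgenic arrays. The knockout-labelled arrays had 7.53, 8.10 and 7.76, and those with both changes had 5.85, 5.35 and 5.54. No neighbouring groups in this order overlapped. The knockout label alone went with a fall of 1.80 ± 0.15 (log2 change ± SE), a 3.48-fold difference with a limma adjusted p of 3.65e-06. With both changes Tlr1 fell by 3.87 ± 0.15 against wild-type, or 14.7-fold (adjusted p = 5.66e-10), and against knockout-labelled marrow it was 2.07 ± 0.15, or 4.21-fold (adjusted p = 1.24e-06). The transgene alone changed Tlr1 by -0.29 ± 0.15, which did not pass the test. These 3 calls held under every alternative tried.

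The fall of Tlr1 with the knockout label was larger on the transgenic background, at 3.59 ± 0.15 against 1.80 ± 0.15. The difference between these falls, tested as an interaction, was -1.79 ± 0.21 (limma adjusted p = 0.000571), and Tlr1 was the 1 member of 13 tested that passed, where 1.21% of all probe sets did and 0.866% did so downward. The other 12 interaction values ran from -1.30 ± 0.53 for Tlr7 1419848_x_at to 1.14 ± 0.52 for Tlr4 1442827_at. The marker list of immature and mature B cells moved along the same groups. The mean of its 13 measured genes of 15 was 10.63 to 10.84 on wild-type arrays, 10.16 to 10.30 on LAP transgenic, 8.78 to 9.24 on knockout-labelled and 6.27 to 6.50 on LAP knockout-labelled arrays, and 11 of the 13 were also called lower in the interaction. The part of that list in the Tlr1 result was not tested.

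Tlr2, the shared partner of TLR1 and TLR6, did not follow Tlr1. It stood at 6.81, 6.86 and 6.85 on the wild-type arrays, 7.15, 7.38 and 7.70 on LAP transgenic, 6.80, 6.91 and 7.04 on knockout-labelled and 7.12, 7.11 and 7.14 on LAP knockout-labelled arrays. All LAP transgenic arrays lay above all wild-type arrays, and the rise was 0.54 ± 0.13, or 1.45-fold (limma adjusted p = 0.0469). That call ended without any 1 of wild-type arrays 1, 2 or 3 or LAP transgenic arrays 2 or 3 (adjusted p 0.069 to 0.145), and also with the values as deposited or centred on their median, with all 21 arrays in 1 fit, without the filter and without the intensity trend in the variance prior. LAP transgenic array 3, the highest for Tlr2, was also the highest marrow array for the mean of the neutrophil list, at 10.80, where its replicates had 8.61 and 9.17 and the wild-type arrays 8.55 to 9.0, over 12 measured genes of 14. It was likewise highest for the monocyte and macrophage list, at 9.43 against 8.14 and 8.40, and 7.72 to 7.99 in wild-type, over 10 measured genes of 11. Without that array the Tlr2 difference was 0.40 (adjusted p = 0.145), and the part of those cells in it was not tested.

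Tlr6, the other partner of TLR2, spanned 5.01 to 5.78 over all 21 arrays and its groups overlapped in every step of their order. Its group means ran from 5.22 ± 0.24 in knockout-labelled to 5.68 ± 0.10 in LAP transgenic marrow. The change between wild-type and LAP knockout-labelled marrow was 0.12, with a 95% interval of -0.25 to 0.48, while its neighbour Tlr1 fell 14.7-fold on the same arrays. Tlr6 was called in none of the 11 comparisons, save for LB31 against marrow with the values as deposited, given below.

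Tlr4, the receptor for lipopolysaccharide, was measured by 4 probe sets, of which 3 could be tested. Tlr4 1418162_at stood at 6.22, 6.39 and 6.12 on wild-type arrays and at 6.62, 7.41 and 7.19 on LAP knockout-labelled arrays. Tlr4 1418163_at stood at 6.01, 5.97 and 6.20 on the former and 6.52, 7.20 and 7.04 on the latter. For both probe sets all arrays with both changes lay above all wild-type arrays, by 0.76 ± 0.21, or 1.70-fold (limma adjusted p = 0.0148), and 0.79 ± 0.20, or 1.73-fold (adjusted p = 0.0111). The first call ended without wild-type array 3 or LAP knockout-labelled array 2 or 3 (adjusted p 0.054 to 0.0762), and the second without LAP knockout-labelled array 2 (0.0569). The dimmer Tlr4 1442827_at had 2.71, 3.92 and 2.85 on LAP transgenic and 4.90, 4.84 and 5.01 on LAP knockout-labelled arrays, and was called higher (limma adjusted p = 0.00217). It was under the filter level on all 3 LAP transgenic arrays and passed the filter through the groups where it is high, so the size of that difference is not read. Against the same LAP transgenic group 1418162_at was higher by 1.09 ± 0.21 (adjusted p = 0.00177), while 1418163_at was not called. The probe sets disagreed over the transgene alone, where 1418162_at gave -0.33, 1442827_at gave -0.88 and 1418163_at gave 0.35, none of which passed the test, 1442827_at again from levels mostly under the filter. Tlr4 1430695_at was above the filter level on no array.

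**Figure D2:**
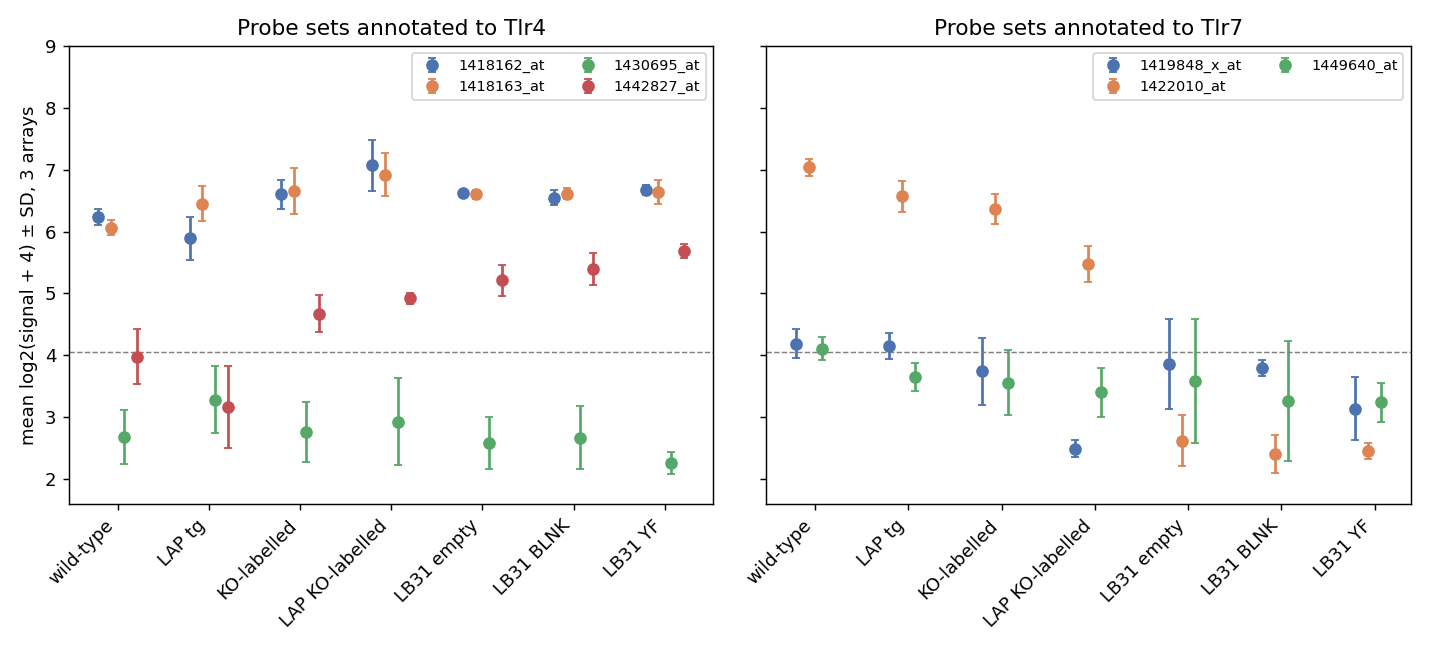
Mean log2(signal + 4) with SD over 3 arrays for each probe set annotated to Tlr4 (left) and to Tlr7 (right) in the 7 groups, with the filter level of 4.06 dashed. For Tlr4 the 2 brightest probe sets lie together near 6 to 7 and 1430695_at lies under the line in every group; for Tlr7 1422010_at falls across marrow and is under the line in LB31, and the other probe sets stay near or under it.

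Among the endosomal receptors, Tlr7 fell and Tlr9 was too dim to follow. Tlr7, the sensor of single-stranded RNA, was brightest on 1422010_at, which stood at 6.88, 7.12 and 7.13 on wild-type, 6.51, 6.35 and 6.84 on LAP transgenic, 6.09, 6.53 and 6.47 on knockout-labelled and 5.33, 5.27 and 5.80 on LAP knockout-labelled arrays. The wild-type arrays lay above all others and the arrays with both changes below all others, while the 2 groups between them overlapped. The fall with both changes was 1.47 ± 0.18, or 2.76-fold (limma adjusted p = 3.51e-05), against wild-type and 1.03 ± 0.18 (adjusted p = 0.000869) against LAP transgenic marrow. Smaller falls of 0.62 ± 0.18 for the knockout label alone (adjusted p = 0.0333) and of 0.84 ± 0.18 for both changes against the knockout label (adjusted p = 0.0122) depended on single arrays. The first ended without any 1 of wild-type arrays 1, 2 and 3 or knockout-labelled arrays 1 and 3 (adjusted p 0.0508 to 0.141), and also with the values as deposited, with all 21 arrays in 1 fit, without the filter and without the intensity trend. The second ended without knockout-labelled array 2 or LAP knockout-labelled array 1 or 2 (0.0519 to 0.0739). Tlr7 1419848_x_at also fell by 1.82 ± 0.37 against wild-type (adjusted p = 0.00265), from a level at the filter to 2.49 ± 0.14, so that its fold change is not read further.

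Plasmacytoid dendritic cells, which are rich in TLR7, had their own marker list. The mean of its 6 genes was 7.39 to 7.56 on wild-type, 6.92 to 7.04 on LAP transgenic, 7.59 to 7.99 on knockout-labelled and 5.99 to 6.78 on LAP knockout-labelled arrays, and Siglech, which defines these cells, had group means of 8.03, 7.20, 8.57 and 6.83 in that order. With both changes against wild-type 5 of the 6 were called lower and 1 higher, and for the knockout label alone none was called, with 1 at an unadjusted p under 0.05. The mature B list fell as given for Tlr1, 13 of 13, both with the knockout label alone and with both changes. Of all probe sets 25.2% were called with both changes, 12.6% lower, and 12.6% with the label alone, 6.41% lower. The part of either list in the Tlr7 values was not tested.

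Tlr9, the sensor of unmethylated CpG DNA, was above the filter level on 1, 0, 1 and 1 of 3 arrays in the marrow groups and on 1, 2 and 1 in LB31. Its single values ran from 2.32 to 4.99 and scattered as widely within groups as between them. Its change with both alterations against wild-type was -0.84 ± 0.77, with a 95% interval of -2.49 to 0.81, so a change of the size seen for Tlr7 was not detectable on this probe set.

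Unc93b1, the chaperone of the endosomal receptors, was bright in every group. It stood at 9.87, 10.21 and 9.79 on wild-type, 10.23, 10.01 and 10.19 on LAP transgenic, 9.88, 9.81 and 9.73 on knockout-labelled and 9.75, 9.61 and 9.46 on LAP knockout-labelled arrays. The groups overlapped at each step, and the arrays with both changes lay below all wild-type and LAP transgenic arrays. The fall against LAP transgenic marrow was 0.51 ± 0.11, or 1.42-fold (limma adjusted p = 0.00418), and it was not called with the values as deposited. That against wild-type was 0.33 ± 0.11, or 1.26-fold (adjusted p = 0.0407), and ended without wild-type array 1 or 2 or LAP knockout-labelled array 2 or 3 (adjusted p 0.0581 to 0.181), with the values as deposited, without the filter and without the intensity trend. Tlr7 1422010_at fell 2.04-fold and 2.76-fold in these comparisons in that order.

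Myd88, the shared adaptor, went the other way from Tlr1 and Tlr7. It stood at 8.14, 8.19 and 8.29 on wild-type, 8.50, 8.57 and 8.69 on LAP transgenic, 8.52, 8.45 and 8.45 on knockout-labelled and 8.58, 8.82 and 8.81 on LAP knockout-labelled arrays. All wild-type arrays lay below all arrays of the other 3 marrow groups. With both changes it rose by 0.51 ± 0.09, or 1.42-fold (limma adjusted p = 0.00122), a call that held under every alternative. The differences of 0.36 ± 0.09 with the transgene (adjusted p = 0.0619) and 0.26 ± 0.09 with the knockout label (adjusted p = 0.0971) did not pass, though Myd88 was called in both with all 21 arrays in 1 fit. The mean of the monocyte and macrophage list was 7.72 to 7.99 in wild-type and 8.38 to 8.58 with both changes. There 1 of its 10 tested genes was called higher, beside 12.6% of all probe sets. The list mean was 8.14 to 9.43 in LAP transgenic and 7.58 to 8.52 in knockout-labelled marrow, whose array 1 lay below all wild-type arrays. The part of that list in the Myd88 difference was not tested.

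Ly86 fell with the knockout label whether or not the transgene was present. This gene of the CD180 partner MD-1 stood at 11.54, 11.66 and 11.58 on wild-type and at 11.89, 11.82 and 11.91 on LAP transgenic arrays. It had 10.33, 10.80 and 10.44 on knockout-labelled and 10.48, 10.35 and 10.44 on LAP knockout-labelled arrays. The latter pair of groups overlapped each other and lay below the former pair. The falls were 1.04 ± 0.09, or 2.05-fold (limma adjusted p = 8.48e-06), for the label alone, 1.13 ± 0.09, or 2.19-fold (1.04e-06), for both changes against wild-type, and 1.41 ± 0.09, or 2.65-fold (1.59e-07), for both changes against LAP transgenic marrow. Between the knockout-labelled groups with and without the transgene Ly86 differed by -0.10, with a 95% interval of -0.30 to 0.11, where Tlr1 differed by -2.07 on the same arrays. The 3 falls held under every alternative.

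Cd180, whose product needs MD-1 at the cell surface, changed less than Ly86. It stood at 7.48, 7.56 and 7.04 on wild-type, 7.76, 7.56 and 7.77 on LAP transgenic, 6.88, 6.95 and 6.93 on knockout-labelled and 7.09, 6.84 and 6.45 on LAP knockout-labelled arrays. The knockout-labelled arrays lay below all wild-type arrays, by 0.42 ± 0.16, which did not pass (limma adjusted p = 0.114) but was called at 0.57 without wild-type array 3, the lowest of its group (0.0456). With both changes Cd180 was lower by 0.85 ± 0.16, or 1.81-fold, than in LAP transgenic marrow (adjusted p = 0.00171). Against wild-type it was lower by 0.53 ± 0.16, or 1.44-fold (0.027), a call that ended with the values as deposited and without wild-type array 1 or 2 or LAP knockout-labelled array 2 or 3 (0.0575 to 0.122).

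**Figure D3:**
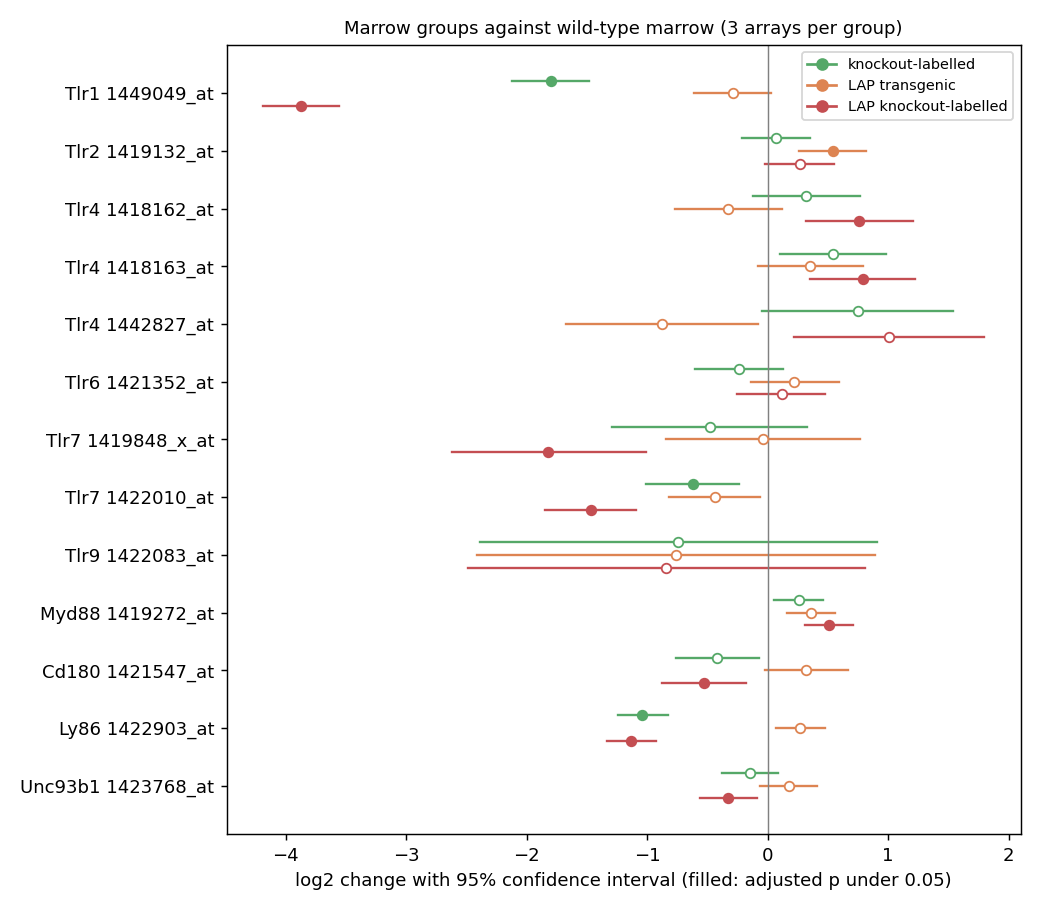
Log2 change of each of the 13 tested probe sets in the 3 other marrow groups against wild-type marrow, with 95% intervals; filled points passed an adjusted p of 0.05. Tlr1 lies farthest from 0, at -1.80 with the knockout label and -3.87 with both changes, Ly86 lies near -1 in both, and Myd88 and the Tlr4 probe sets 1418162_at and 1418163_at lie to the right of 0 with both changes.

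LB31 was set against the marrow groups that carry the knockout label, as the leukaemia line came from a mouse with that label. The Cebpb probe set 1427844_a_at stood at 10.22 ± 0.10 with the empty vector, 10.11 ± 0.05 on BLNK-labelled and 10.09 ± 0.16 on YF arrays (SD, n = 3), the level of marrow with the LAP transgene and far above the 5.02 ± 0.35 of knockout-labelled marrow. The line thus differs from the knockout-labelled group in that signal too, while 1418901_at was lower in the line, at 4.62 ± 0.42 with the empty vector. The comparison sets 1 cultured line against sorted marrow. Culture, malignancy and cell composition differ between them together, as does the Cebpb 1427844_a_at signal against knockout-labelled marrow. These differences cannot be told apart. With the empty vector against knockout-labelled marrow 5 of 14 tested members were called, all lower, where 56.9% of all 33764 probe sets were called in either direction and 27.6% lower. Against LAP knockout-labelled marrow 1 was called higher and 7 lower, with 55.8% of all called, 28.7% higher and 27.1% lower. Over both directions the members' shares were near or under those of all probe sets. The median change of the tested members was -0.06 and -0.31, against 0.08 for all probe sets in both. Tlr1 and Tlr7 1422010_at passed the filter through marrow alone, being under it on all 9 LB31 arrays.

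Tlr1 stood at 2.41, 2.45 and 2.21 with the empty vector, 2.25, 2.48 and 3.80 on BLNK-labelled arrays and 3.53, 2.33 and 3.16 with YF, so every LB31 array lay below every marrow array. Tlr7 1422010_at stood at 2.59, 3.05 and 2.23, at 2.18, 2.27 and 2.77 and at 2.49, 2.31 and 2.58 in the same order. These values lie under the filter level, where signals have no clear order, so the fitted differences from knockout-labelled marrow of -5.44 ± 0.31 for Tlr1 and -3.74 ± 0.25 for Tlr7 are not read as fold changes. Tlr2 remained measurable on most arrays of the line, at 4.84, 4.27 and 4.61 with the empty vector, 5.07, 4.68 and 3.64 on BLNK-labelled arrays and 4.58, 4.24 and 4.40 with YF. It was 5.07-fold lower with the empty vector than in knockout-labelled marrow, by -2.34 ± 0.25 (limma adjusted p = 3.88e-08), and -2.55 ± 0.25 against LAP knockout-labelled marrow (1.17e-08).

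Ly86 showed the largest difference of a member that was above the filter on every array. It stood at 6.30, 5.84 and 6.01 with the empty vector, and was 22.2-fold lower than in knockout-labelled marrow, by -4.47 ± 0.12 (limma adjusted p = 1.39e-17), and 20.7-fold lower than in LAP knockout-labelled marrow (2.67e-17). Its receptor gene Cd180 stood at 6.71, 6.65 and 7.20 on the same LB31 arrays, a change of -0.06 against knockout-labelled marrow with a 95% interval of -0.42 to 0.29 (called at -0.68 with the values as deposited). In the line the receptor gene thus lay within the range of the knockout-labelled marrow groups on 2 of 3 arrays, while the gene of its partner was far lower on all 3.

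The rest of the family differed little from marrow. Myd88 stood at 8.29, 8.32 and 8.42 with the empty vector, lower by 0.39 ± 0.08 than in LAP knockout-labelled marrow (limma adjusted p = 0.000385) and by 0.13 ± 0.08 than in knockout-labelled marrow, which did not pass. Unc93b1 at 9.36, 9.42 and 9.14 was lower by 0.50 ± 0.11 (0.000675) than in knockout-labelled and by 0.30 ± 0.11 (0.028) than in LAP knockout-labelled marrow. Those 3 calls ended when arrays were centred on their median, a setting that put the median of all probe sets at 0.23 and 0.22 in the comparisons with knockout-labelled and LAP knockout-labelled marrow, and the last also ended without the intensity trend and without LAP knockout-labelled array 1 or 2 or empty-vector array 3 (0.0592 to 0.15). Tlr4 1418162_at was within 0.02 of knockout-labelled marrow and lower by 0.45 ± 0.19 than with both changes (0.0458), a call that ended without any 1 of LAP knockout-labelled arrays 2 and 3 or the 3 empty-vector arrays (0.0766 to 0.25), with median centring, with a pseudocount of 1, without the filter and without the intensity trend. With the values as deposited, which moved the median of all probe sets to -0.42, 10 of 14 members were called lower than in knockout-labelled marrow, Tlr4 1418162_at (-0.65), Tlr6 (-0.69) and Cd180 (-0.68) among them. Tlr7 1419848_x_at was called higher than with both changes, by 1.37 ± 0.38 (0.0038), both levels being under the filter level.

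Markers of monocytes and macrophages, neutrophils and mature B cells differed in the same direction between marrow and LB31. The mean of the monocyte and macrophage list was 7.58 to 9.43 on marrow and 3.88 to 4.36 on LB31 arrays, that of the neutrophil list was 8.23 to 10.80 and 3.07 to 4.01, and that of the immature and mature B list was 6.27 to 10.84 and 4.06 to 4.48. With the empty vector against knockout-labelled marrow 10 of 10, 11 of 12 and 13 of 13 of their tested genes were called lower. Of all probe sets 56.9% were called in that comparison, 27.6% lower. In the fit of LB31 alone 7, 5 and 8 genes of these lists could be tested. The others passed the filter through marrow, where they are high, so these counts are not read further. The plasmacytoid dendritic cell list was less uniform, with means of 5.99 to 7.99 on marrow and 5.21 to 5.87 on LB31 arrays. Of its 6 genes 5 were lower and 1 higher against knockout-labelled marrow, and 3 were lower and 3 higher against LAP knockout-labelled marrow. S100a8, which defines neutrophils, was above the filter on 1 of 9 LB31 arrays. The part of these cells in the lower Tlr1, Tlr2, Tlr7 and Ly86 of the line was not tested.

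Within LB31, 1 member differed between the BLNK-labelled arrays and the empty vector. The Blnk probe set itself was lowest on the BLNK-labelled arrays, at 8.56 ± 0.06 against 9.63 ± 0.02 with the empty vector and 9.40 ± 0.08 with YF (SD, n = 3). It thus goes against the label, unless its probes lie outside the transduced cDNA, which the sources used here do not say, and every direction below is that of the arrays labelled BLNK. Unc93b1 stood at 9.36, 9.42 and 9.14 with the empty vector, 8.66, 9.05 and 8.80 on BLNK-labelled arrays and 9.11, 9.28 and 9.11 with YF. The BLNK-labelled arrays lay below all others, and the fall against the empty vector was 0.50 ± 0.10, or 1.41-fold (limma adjusted p = 0.00699). It was the 1 call among 10 tested members, where 11.4% of all 29478 probe sets were called and 5.84% lower. The call ended with the values as deposited, with arrays centred on their median (which moved the median of all probe sets by 0.11) and without the intensity trend in the variance prior. Against YF the difference of -0.35 ± 0.10 did not pass (adjusted p = 0.07), but did without BLNK-labelled array 2 (0.0205). Ly86 had 6.25, 6.39 and 6.68 on BLNK-labelled arrays and 6.43, 6.36 and 6.36 with YF, and its difference of 0.43 ± 0.16 between the BLNK-labelled arrays and the empty vector (0.107) passed without empty-vector array 1 alone (0.0267).

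Between YF and the empty vector, and between BLNK-labelled and YF arrays, limma called 0 of 10 members, with 2 of 10 at an unadjusted p under 0.05 in each, where 0.227% and 6.40% of all probe sets were called. The pro-B and pre-B list had 4 of its 5 tested genes called lower on BLNK-labelled arrays than with the empty vector, its array means being 8.58 to 8.84 and 9.10 to 9.30, and its part in the Unc93b1 difference was not tested. The interval of the Myd88 difference between BLNK-labelled arrays and the empty vector was 0.02 to 0.34, and that of Cd180 was -0.07 to 0.63. For Tlr4 1418162_at the interval was -0.32 to 0.16 and for Tlr6 it was -0.31 to 0.55.

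**Figure D4:**
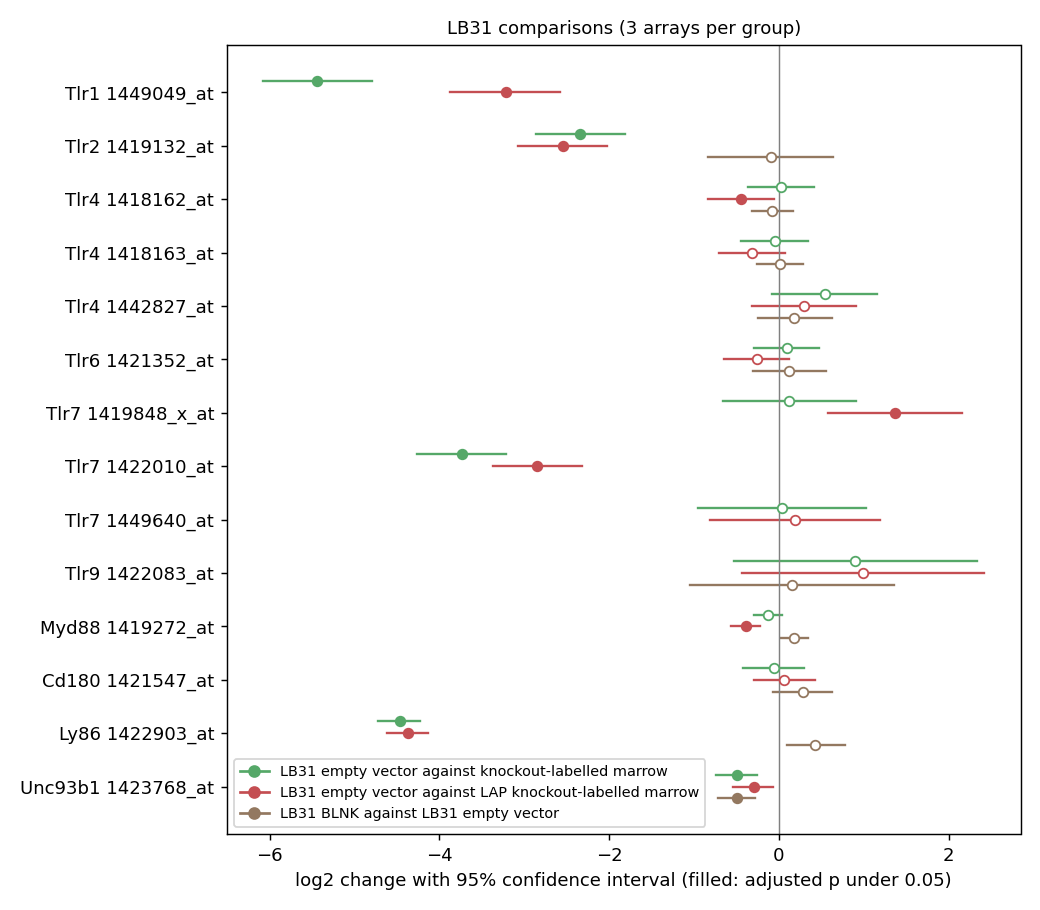
Log2 change with 95% intervals for LB31 with the empty vector against each knockout-labelled marrow group, and for BLNK-labelled LB31 against the empty vector; filled points passed an adjusted p of 0.05, and a comparison is left out where a probe set was not tested. Tlr1, Tlr2, Tlr7 1422010_at and Ly86 lie at -2.34 or below against both marrow groups, and among the points for the BLNK label that of Unc93b1, at -0.50, is the filled one.

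The other genes of the pathway were taken from a list of 42, with 1 probe set per gene, of which 37 were tested in marrow. They were 6 other Toll-like receptors and co-receptors, chaperones, adaptors, kinases, inhibitors, interferon regulatory factors and endosomal proteases. Of the 6 other receptors 4 were tested in marrow, and limma called 0 of them in each comparison between marrow groups. For the transgene alone 1 had an unadjusted p under 0.05. With the empty vector 1 was lower than in knockout-labelled and 2 than in LAP knockout-labelled marrow. Of all probe sets 56.9% and 55.8% were called there. For the knockout label alone 2 of the 37 were higher and 3 lower. With both changes against wild-type 7 were higher and 11 lower, beside the 12.6% and 25.2% of all probe sets given above. With the transgene alone 3 were higher and 1 lower (2.57% of all probe sets called), with both changes against the knockout label 2 and 4 (5.08%), and against LAP transgenic marrow 3 and 9 (21.1%). In the interaction limma called 0 of 37, with 5 at an unadjusted p under 0.05, and 1 with all 21 arrays in 1 fit. With the values as deposited the splits were 10 higher and 3 lower for the label alone, 16 and 6 for both changes against wild-type, 9 and 4 against LAP transgenic marrow, 2 and 2 against the knockout label, and 1 and 1 for the transgene. Leaving out 1 array brought the 18 calls for both changes against wild-type to 11 (wild-type array 1 or LAP knockout-labelled array 2), the 6 against the knockout label to 2 (knockout-labelled array 2), and the 4 for the transgene to 1 or 2, whichever array was left out.

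Among the proximal adaptors and kinases a few genes fell. Tirap, the bridging adaptor that brings MYD88 to TLR2 and TLR4, stood at 8.75 ± 0.11 (SD, n = 3) in wild-type, 7.41 ± 0.29 with the knockout label and 6.85 ± 0.24 with both changes. It fell by 1.29 ± 0.15 (limma adjusted p = 5.42e-05) and 1.81 ± 0.15 (7.41e-07), while Myd88 was higher by 0.26 and 0.51 in the same comparisons, the first of which did not pass. Irak2, a kinase of the MYD88 complex, fell by 1.24 ± 0.15 (7.64e-05) and 1.46 ± 0.15 (6.25e-06), and Peli1, a ubiquitin ligase that acts on that complex, fell by 0.67 ± 0.10 (0.00038) with the label alone. Of the 13 tested adaptors and kinases 3 were lower and 0 higher with the label alone (5 at an unadjusted p under 0.05), and 5 were lower and 2 higher with both changes. Their median change was -0.05 and -0.20. Of all probe sets 12.6% were called with the label alone, 6.41% lower, and 25.2% with both changes, 12.6% in each direction.

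Some co-receptors and inhibitors were higher where those adaptors were lower. Cd36, a scavenger receptor that presents lipids to TLR2 with TLR6, stood at 8.41 ± 0.04 in wild-type marrow. It stood at 10.30 ± 0.04 with the knockout label and 10.36 ± 0.09 with both changes. Its rises in the marrow fit were 1.79 ± 0.19 (limma adjusted p = 2.65e-05) and 1.84 ± 0.19 (6.97e-06). Sigirr, a receptor-like inhibitor of the pathway, rose by 0.65 ± 0.13 (0.0036) and 1.03 ± 0.13 (3.77e-05). Irak3, the inhibitory member of the IRAK family, was higher with the transgene, by 0.68 ± 0.11 against wild-type (0.00577) and by 0.62 ± 0.11 between the knockout-labelled groups (0.00306). Among the 5 inhibitors 2 were higher and 1 lower with both changes, and among 7 co-receptors and chaperones 3 were higher and 0 lower. Of all probe sets 25.2% were called in that comparison, 12.6% in each direction. The rise of Lbp with both changes, 1.75 ± 0.51 (0.0214), ended without wild-type array 1 or LAP knockout-labelled array 2 or 3 (0.0575 to 0.0949), and without the intensity trend.

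All 3 interferon regulatory factors of the list, Irf3, Irf5 and Irf7, which act downstream of the adaptors, were lower with both changes than in wild-type marrow, where 25.2% of all probe sets were called. The plasmacytoid dendritic cell list had 5 of 6 genes lower and the mature B list 13 of 13 in that comparison and also between the knockout-labelled groups, and their part in these factors was not tested. Irf7 differed by -0.84 ± 0.22 (limma adjusted p = 0.042) and Irf5 by -0.58 ± 0.14 (0.0314) between the knockout-labelled groups with and without the transgene, and both calls ended without any 1 of 5 of the 6 arrays compared (0.0535 to 0.183 and 0.0563 to 0.153) and without the intensity trend. Irf7 also ended with all 21 arrays in 1 fit, without the filter and with the replicate number as a block, and Irf5 with the values as deposited. Ctss, a cathepsin that cleaves endosomal receptors, was lower by 0.54 ± 0.10 in that comparison (0.00389). In LB31 with the empty vector all 5 endosomal proteases were lower than in both knockout-labelled marrow groups, Ctsl by -4.33 ± 0.20 (4.55e-14) and Ctss by -2.80 ± 0.09 (1.95e-16) against the group without the transgene. Over the whole list 5 were higher and 21 lower there, and 3 and 21 against marrow with both changes, beside 56.9% and 55.8% of all probe sets. The splits were 2 and 26 against knockout-labelled marrow with the values as deposited, and 5 and 16 against marrow with both changes with median centring.

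Within the line, the BLNK-labelled arrays against the empty vector had 4 of 33 tested pathway genes higher and 4 lower, beside 11.4% of all probe sets. YF had 0 called in limma, beside 0.227%, with 4 at an unadjusted p under 0.05 (1 called with the values as deposited or with median centring). For the BLNK label the split was 6 higher and 0 lower with median centring and 1 and 0 with the values as deposited, and the 8 calls came to 5 without BLNK-labelled array 2 or 3. Ctsb, another endosomal protease, was higher on BLNK-labelled arrays by 0.36 ± 0.05 (limma adjusted p = 0.000771), a call that ended with the values as deposited and with all 21 arrays in 1 fit. Tnfaip3, the ubiquitin-editing inhibitor A20, was lower by 0.51 ± 0.09 (0.00184), and that call ended with the values as deposited and with median centring. Tirap was higher by 0.92 ± 0.24 (0.0246), a call that ended without empty-vector array 2 or 3 or BLNK-labelled array 2 or 3 (0.076 to 0.103), with the values as deposited and without the filter. Against YF, Tirap was higher by 1.29 ± 0.24 (0.00498).

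**Figure D5:**
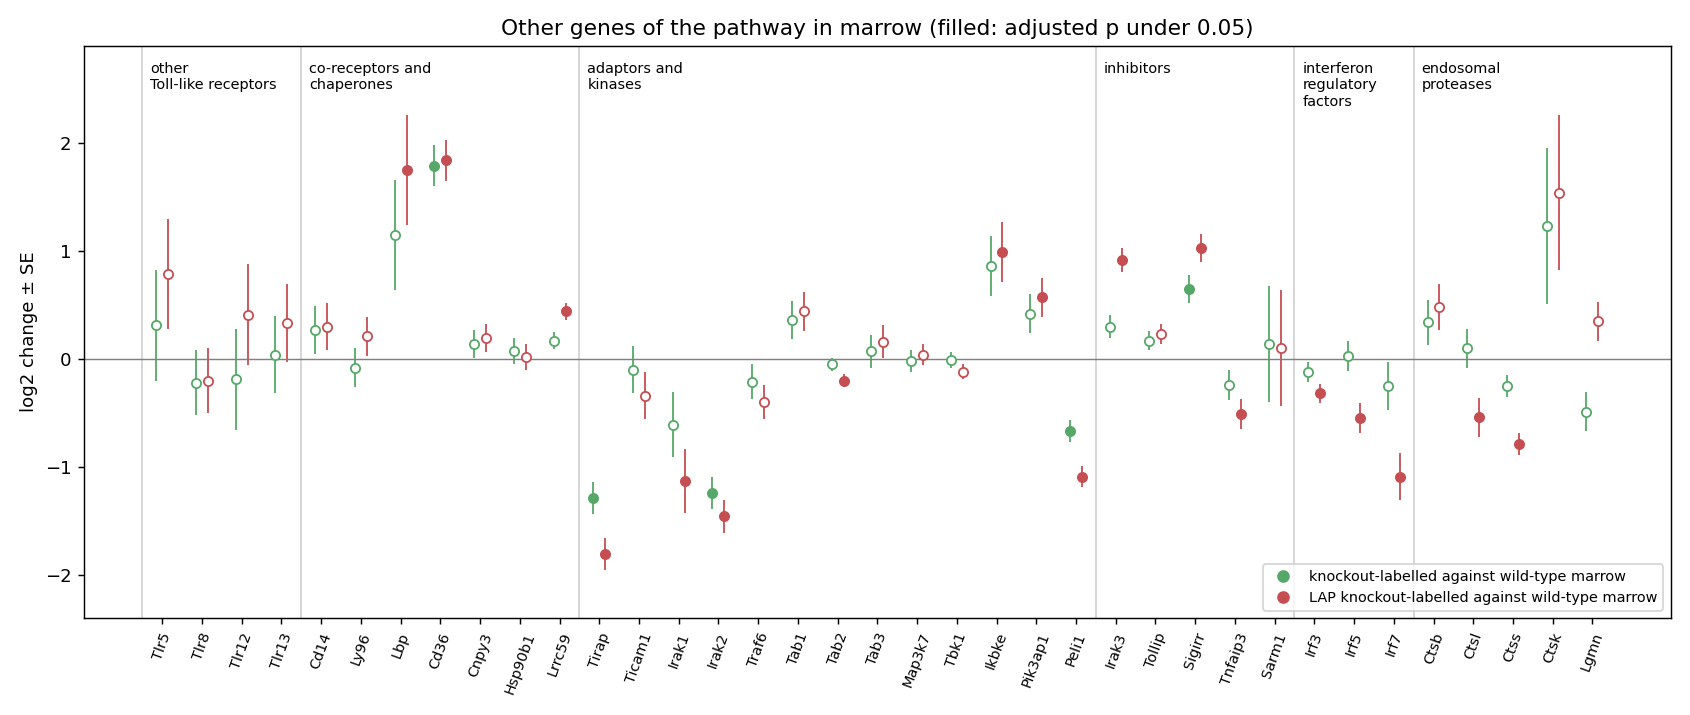
Log2 change with SE of each tested gene of the pathway list in knockout-labelled and LAP knockout-labelled marrow against wild-type marrow, ordered by role; filled points passed an adjusted p of 0.05. Tirap, Irak2 and Peli1 lie below 0 and Cd36 and Sigirr above it with filled points in both comparisons.

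The genes most like a member over the 21 arrays were listed among 14654 genes by Pearson's r, with no test, since the arrays fall into 7 groups and the step between marrow and LB31 alone gives high values. Those most like Tlr1 were Ralgps2 (0.992), Ms4a4c (0.989) and the class II gene H2-Aa (0.986). Those most like Tlr7 were Card6 (0.994), Shisa5 (0.992) and the B cell adaptor Bank1 (0.991), and those most like Tlr2 were Fcna (0.985), Cpeb4 (0.984) and the macrophage receptor Mrc1 (0.983). Among members, Tlr1 and Tlr7 had 0.966 and Tlr1 and Ly86 0.958, while Cd180 and Ly86 had 0.459 and Tlr1 and its neighbour Tlr6 had 0.254.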

How the data were processed

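Gene expression was measured on Affymetrix Mouse Genome 430 2.0 arrays, 21 in 7 groups of 3, and groups were taken from the labels. The deposited intensity values are the authors' linear signals per probe set from MAS5, per the submitters' processing notes. The sources used here do not give their scaling target. Gene names came from the platform annotation, which gave 34945 probe sets 1 symbol, 932 several and 9160 none, and 64 control probe sets were left out.

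From those values log2(value + 4) was taken, so fold changes of dim probe sets are understated, and the arrays were then quantile normalized. Probe sets above the 40th percentile of their own array on at least 3 arrays of a fit were tested in limma 3.58.1 (R 4.3.3) with an intensity trend, two-sided, with Benjamini-Hochberg adjustment over all of them. The 12 marrow arrays and the 9 LB31 arrays were normalized and fitted separately. All 21 were normalized together for levels and for LB31 against marrow, and fitted together for the latter. An error is an SE for a change and an SD for a level. The number of arrays limits the precision. The procedure was tested on simulated data.

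The members and lists were chosen with earlier results of these data known, so counts over lists are descriptions. Text names cover every member probe set, up to 3 called pathway genes per direction and comparison by size of change, the 3 most alike genes per member, and defining markers. Fewer were written out where a gene repeated or a list moved as a whole. On the pathway list Irak4, Ticam2, Tlr11 and Traf3 had no probe set of their own. The values of Tlr1 and of the brightest Tlr7 probe set are below the filter on all LB31 arrays. The dimmer Tlr7 probe sets were above it on a few single LB31 arrays. Alternatives were values as deposited, median centring, all 21 arrays in 1 fit, a pseudocount of 1 or 16, no filter or the 60th percentile, 1 probe set per gene, no intensity trend, a replicate block, and leaving out each array.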

Additional observations from a re-analysis of the deposited data

Results flagged for a closer look

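The fall of Tlr1 with the knockout label differed between the backgrounds with and without the LAP transgene. It was 1.80 ± 0.15 (log2 change ± SE, n = 3 arrays per group) without the transgene and 3.59 ± 0.15 with it, and the interaction of -1.79 ± 0.21 passed the test (limma adjusted p = 0.000571). All 3 arrays with both changes lay below all 3 knockout-labelled arrays. Of the 13 measured genes of the immature and mature B list, 11 were also lower in the interaction, beside 0.866% of all probe sets. Their part in the Tlr1 value was not tested.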

How the results depend on the processing

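Of 38 called values of single member probe sets, 25 kept their call and direction under every alternative and 13 lost the call under at least 1. Of 98 values not called, 18 were called in the same direction under at least 1 alternative, and 3 were called in the opposite direction. With the values as deposited the member calls went from 3 to 6 for the knockout label, from 1 to 0 for the transgene, from 1 to 0 for the BLNK label against the empty vector, and from 5 to 10 for the empty vector against knockout-labelled marrow. The same setting turned 4 values round, to -0.65 for Tlr4 1418162_at, -0.69 for Tlr6 and -0.15 for Ticam1 against knockout-labelled marrow, and to -0.57 for Cd180 against LAP knockout-labelled marrow. Median centring brought the calls for the transgene and for BLNK from 1 to 0, and those for the empty vector against LAP knockout-labelled marrow from 8 to 5. No intensity trend gave 0 for the transgene and 0 for BLNK, and no filter gave 0 for the transgene. The stricter filter and 1 probe set per gene both gave 2 for the transgene, and the latter brought both changes against LAP transgenic marrow from 8 to 5, since fewer member probe sets are tested there.

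Leaving out 1 array gave 2 to 3 calls for the knockout label, 0 to 1 for the transgene, 5 to 9 for both changes against wild-type, 1 to 3 against the knockout label and 8 to 8 against LAP transgenic marrow, and 1 to 1 in the interaction. In LB31 it gave 1 to 2 for BLNK, 0 to 1 for the BLNK label against YF and 0 to 0 for YF, and against marrow 5 to 5 and 6 to 8.

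The labels number the replicates 1 to 3, but deviations of same-numbered arrays correlated at -0.029 to 0.017 in LB31 and -0.086 to 0.242 in marrow, with 1 of 18 marrow pairs over 0.1, so the numbers were not taken to pair the arrays. With the replicate number as a block, BLNK against YF went from 0 to 1 member, and the member counts stayed at 3, 1, 9, 2, 8 and 1 in marrow and at 1 and 0 for BLNK and YF against the empty vector.

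Counts over all probe sets moved further. For the knockout label 3811 became 6910 as deposited (6258 higher and 652 lower, against 1881 and 1930), 2277 with 1 probe set per gene and 2496 without knockout-labelled array 1. For both changes against LAP transgenic marrow 6357 became 11804 as deposited, for the BLNK label against the empty vector 3373 became 736 (2207 without BLNK-labelled array 1), and for YF against the empty vector 67 became 327. YF had 1833 with median centring, 4 with the block, 2078 without empty-vector array 1 and 1 without YF array 2 or 3. For the transgene 774 became 352 without the trend, 1853 with all 21 arrays and 233 without wild-type array 1. The 1531 for both changes against the knockout label became 799 without knockout-labelled array 2 and 2170 without knockout-labelled array 3. The interaction's 365 ran from 189 (no intensity trend) to 885 (all 21 arrays), and from 204 without wild-type array 1 to 583 without knockout-labelled array 3, and the 1886 for the BLNK label against YF became 682 with all 21 arrays and 1096 without YF array 2. The causes were not tested. Dim probe sets, Tlr9 among them, limit what these arrays can show.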
